A study of Mus musculus with 12 samples.

Results

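The hair shaft keratins Krt31, Krt33a, Krt33b, Krt34, Krt35, Krt81, Krt82, Krt83, Krt85 and Krt86 were followed in the whole back skin that the study sampled under MXD, N-CE and VC. Their probes were those whose gene name on the array equalled 1 of these 10 symbols. This held for 10 of the 41174 transcript probes and for 9 of the 27373 gene names. Krt33b had 2 probes and the others 1 each, while no probe carried the name Krt81, which is therefore not analysed here. MXD is minoxidil, a drug for hair loss and the positive control, applied at 3%, and N-CE is a cell extract of the cactus Notocactus ottonis, applied at 10%. VC is the vehicle alone, a mixture of propylene glycol, ethanol and water. All groups were male C57BL/6J mice, 8 weeks old at purchase, that were shaved on the back and then received 200 µL per day from the day after. Skin was taken after 1, 2 or 3 weeks (1W, 2W and 3W). Each treatment and week is 1 pool made from the RNA of 6 mice. A treated pool and the VC pool of that week were put together on 2 arrays, the second with the Cy3 and Cy5 dyes exchanged.

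Hair keratins are the intermediate filament proteins of the hard, dead part of the hair. A type I (acidic) chain pairs with a type II (basic) chain, the pairs form filaments, and keratin-associated proteins crosslink the filaments as the cells of the shaft harden. They are made in the matrix, cortex and cuticle of follicles in the growth phase (anagen), and follicles at rest make little or none. In mouse back skin, neighbouring follicles tend to enter the growth phase together.

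Each array held 43379 transcript spots, of which 57.0 to 65.0% in Cy3 and 61.3 to 69.6% in Cy5 were well above background, with 0 saturated. The number of arrays limits the precision, and an SD below is that over the 2 arrays of a dye swap, a measure of labelling and hybridization and not of the mice. Within a week no test across mice is possible. The 4 arrays of a week shared a slide, a scan and the VC pool, so that week, slide and scan cannot be told apart and the MXD and N-CE values of a week are not independent. Of 10 epidermal marker genes 9 had a probe, and 6 to 9 remained in the 6 comparisons after outlier spots and dim probes were left out. Each keratin with a probe was well above background in both pools of every comparison it was measured in. In whole skin, fewer keratin-making cells and less keratin RNA per cell cannot be told apart.

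The type I members lie together on chromosome 11 and the type II members on chromosome 15 (probe positions on mm9). The probes of Krt33a, Krt33b, Krt34, Krt31 and Krt35 were placed between 99872578 and 99953598 of chromosome 11. Those of Krt83, Krt86, Krt85 and Krt82 were placed between 101264040 and 101371888 of chromosome 15. Members of this family are close copies, and this touches the type II probes. The probes named Krt83 and Krt86 shared 20 bases, the start of the first and the end of the second, while no other pair of member probes shared a run above 7 bases. They are shown because they decide which genes those values can be credited to, with the shared run in capitals:
Krt83 probe: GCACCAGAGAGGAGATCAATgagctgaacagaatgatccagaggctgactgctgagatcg
Krt86 probe: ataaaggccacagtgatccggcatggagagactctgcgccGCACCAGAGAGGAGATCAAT
The array lists transcripts of Krt81, Krt83 and Krt86 under both probes, by the names of the RefSeq table for GRCm38.p6. The accession of the Krt83 probe itself is named Krt87 in that table. The values given as Krt83 and Krt86 are thus values of these probes, and the 2 genes and Krt81 cannot be told apart by them. Nor can Krt87 be told apart from these by the Krt83 probe. The other probes were listed with 1 transcript accession each.

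Promoters of 4 members, Krt31, Krt33b, Krt34 and Krt82, were in the RefSeq promoter table. Their 250 bases before the start (GRCm38.p6, minus strand, 5′ to 3′) are shown because the members moved together in every strong comparison below. Capitals mark, on either strand, TATAAA (the TATA box), CTTTGAA and CTTTGTT (cores of LEF1 and TCF sites, which share their first letters) and TTTATGGG, a run that was picked after the sequences were seen:
Krt31, chr11:100050552-100050801: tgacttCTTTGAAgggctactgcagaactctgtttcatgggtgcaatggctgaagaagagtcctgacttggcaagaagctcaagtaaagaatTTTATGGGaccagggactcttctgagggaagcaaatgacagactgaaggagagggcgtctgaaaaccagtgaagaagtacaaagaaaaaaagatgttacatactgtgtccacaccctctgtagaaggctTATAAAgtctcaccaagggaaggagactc
Krt33b, chr11:100029869-100030118: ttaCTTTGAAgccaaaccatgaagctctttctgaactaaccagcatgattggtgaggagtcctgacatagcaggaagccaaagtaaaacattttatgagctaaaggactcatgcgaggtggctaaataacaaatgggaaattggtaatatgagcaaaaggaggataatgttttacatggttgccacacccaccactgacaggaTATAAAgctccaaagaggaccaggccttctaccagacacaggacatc
Krt34, chr11:100041555-100041804: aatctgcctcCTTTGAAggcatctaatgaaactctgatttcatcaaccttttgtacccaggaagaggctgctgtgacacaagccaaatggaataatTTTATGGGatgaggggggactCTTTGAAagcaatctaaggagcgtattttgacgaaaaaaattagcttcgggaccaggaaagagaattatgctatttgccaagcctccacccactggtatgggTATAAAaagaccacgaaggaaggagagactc
Krt82, chr15:101550660-101550909: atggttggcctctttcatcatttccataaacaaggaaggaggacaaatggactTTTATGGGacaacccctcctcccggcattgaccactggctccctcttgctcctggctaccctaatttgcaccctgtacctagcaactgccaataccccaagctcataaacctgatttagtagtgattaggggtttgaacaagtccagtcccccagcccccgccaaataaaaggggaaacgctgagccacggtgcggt
TATAAA was found in 3 of the 4, between 24 and 47 bases before the start, and in 12.4% of the 32851 promoters of the table. CTTTGAA was found in 3 of the 4, in Krt34 at 2 places, and in 4.46% of all promoters. CTTTGTT was found in 0 of the 4 and in 5.03% of all. TTTATGGG was found in 3 of the 4, among them the type II gene Krt82 on the other chromosome, and in 0.597% of all promoters. These matches describe the letters only.

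MXD over VC at 1W was above 0 on both arrays for all 9 keratins. The median log2 ratio was 0.65, a 1.57-fold higher signal, and the members ranged from 0.46 for Krt82 to 0.94 for Krt33a. The median of all probes above background was -0.01. The SD between members, 0.15, was close to the median SD of a dye swap, 0.14. A gene was called when the error model of the software gave P under 0.01 on both arrays in 1 direction and the mean fold was above 1.5 or below 0.75. By that rule 4 of 9 keratins rose, against 1.07% of the 26150 probes above background.

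Among the type I chains, Krt33a, a cortex keratin, had log2 ratios of 0.99 with MXD in Cy5 and 0.89 with MXD in Cy3. Krt33b, its close relative, had 0.75 and 0.88, and Krt34, another keratin of the cortex, had 0.65 and 0.66. These 3 were called, and their arrays lay close together. Of the type II chains, Krt86, whose human counterpart is mutated in the beaded hair disease monilethrix, was called at 0.71 and 0.60. Krt31, Krt35 and Krt83 had mean folds past 1.5 but missed the P threshold on 1 array. Krt31, a type I chain of the cortex, had 0.75 and 0.46. Krt35, a type I chain of the matrix and early cortex, had 0.53 and 0.82. Krt83 had 0.71 and 0.52. Krt85, the first type II chain made in the hair matrix, had 0.62 and 0.32, and Krt82, a type II chain of the hair cuticle, had 0.70 and 0.22. Both lay below the fold threshold on average, and Krt82 had the widest gap between its arrays at this week.

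At 2W all 9 keratins rose under MXD, against 6.39% of the 25979 probes above background. The folds lay between 2.09 and 2.78 with a median log2 ratio of 1.33, outside the 10th to 90th percentile of all probes, -0.74 to 0.63. Krt82 had the highest mean, 1.48 ± 0.65, but also the widest dye swap, with 1.94 on the array with MXD in Cy5 and 1.02 on the other. Krt33b had 1.55 and 1.38, and Krt33a had 1.35 and 1.36. For Krt33a both dye orientations gave nearly the same ratio. Krt34 had 1.71 and 1.07, and Krt31 had 1.65 and 1.00. Krt35, one of the earliest hair keratins, had 1.14 and 1.25. All type I values were thus at or above 1.00, a doubling of signal, on both arrays. On the type II side Krt86 had 1.56 and 1.07, Krt83 had 1.51 and 0.93, and Krt85 had 1.36 and 0.76. Krt85 was the lowest of the 9. The array with MXD in Cy5 gave the higher value for 7 of 9 keratins, and its member median was 1.55 against 1.07 on the other array. The 2-array means of the members at 2W spread with an SD of 0.13. The median dye-swap SD, 0.41, is that of single arrays and holds the shift shared by most members. The highest keratin was Krt82 at 1.94 with MXD in Cy5 and Krt33b at 1.38 with MXD in Cy3. The order of the members is thus not resolved.

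At 3W no keratin was called under MXD, against 0.242% of the 24351 probes above background. The values were small but on 1 side, above 0 on both arrays for all 9, with a median of 0.29 and a range from 0.05 for Krt34 to 0.37 for Krt33a. Krt34 had 0.07 and 0.03, and Krt33a had 0.40 and 0.34. Krt34, at a mean of 1.39 a week earlier, was thus the closest to VC.

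**Figure D1:**
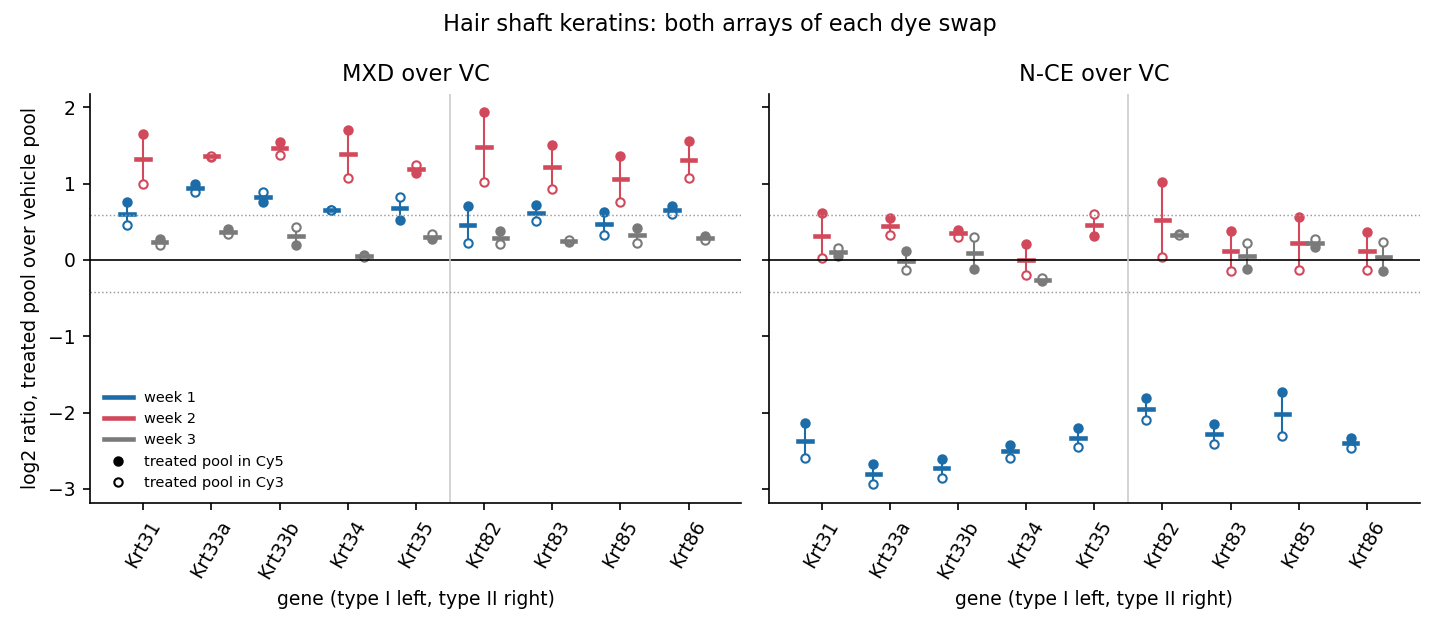
Log2 ratio of the treated over the vehicle pool for 9 hair shaft keratins, MXD left and N-CE right, with colours for the week. Circles are the 2 arrays of a dye swap (filled with the treated pool in Cy5), bars their mean, and dotted lines the folds of 1.5 and 0.75. Under MXD all values lie above 0 and are highest at 2W. Under N-CE those of 1W lie between -2.94 and -1.73. Those of 2W lie between -0.20 and 1.02, and those of 3W between -0.28 and 0.33.

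N-CE over VC at 1W was below 0 on both arrays for all 9 keratins. The smallest mean change, -1.96 for Krt82, exceeded in size the largest MXD mean of any week, 1.48. The median log2 ratio was -2.37, so that VC exceeded N-CE by a factor of 5.17, with members between 3.88 and 6.99. All 9 fell by the rule, against 2.39% of the 25626 probes above background. Both pools were well above background for every keratin, so these are measured ratios and not bounds.

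Among the type I chains Krt33a fell most, with -2.67 on the array with N-CE in Cy5 and -2.94 on the other. Krt33b had -2.61 and -2.85, and Krt34 had -2.43 and -2.59. The neighbouring cortex chains thus fell by similar amounts. Krt31 had -2.14 and -2.60, and the early chain Krt35 had -2.21 and -2.45. Of the type II chains Krt86 had -2.33 and -2.46, and Krt83 had -2.14 and -2.41, as 2 probes with a shared end. Krt85 had -1.73 and -2.31, the widest dye swap of this comparison with an SD of 0.41. The cuticle chain Krt82 fell least, with -1.81 and -2.10. Type I chains averaged -2.55 (n = 5 genes) and type II chains -2.16 (n = 4 genes), a description of 9 genes with no test. At MXD 2W the same averages were 1.35 and 1.27. The spread between members at N-CE 1W, an SD of 0.28, exceeded the median dye-swap SD of 0.19. However, the 2 probes of Krt33b had means of -2.73 and -2.05 here, further apart than the type I and type II averages. Differences between single keratins or between the types are thus not resolved from differences between probes. All 9 keratins were higher on the array with N-CE in Cy5, a shift that did not change a sign.

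The second probe of Krt33b, dimmer than the first, gave smaller mean changes of the same direction at MXD 1W, MXD 2W and N-CE 1W. At N-CE 1W it had -1.93 and -2.17 against -2.61 and -2.85 for the brighter probe. At MXD 2W it had 1.55 and 0.83, and at MXD 1W 0.58 and 0.40, where it was not called. So the Krt33b call at MXD 1W rests on the brighter probe.

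At 2W no keratin was called under N-CE, against 0.107% of the 26077 probes above background. The member median was 0.32, but it was 0.39 on the array with N-CE in Cy5 and 0.026 on the other, and over all probes above background the 2 arrays correlated at -0.14. Krt82 shows the gap best, with 1.02 and 0.04. Krt33a had 0.55 and 0.33, Krt33b had 0.39 and 0.31, and Krt35 had 0.31 and 0.60. These 3, with Krt31 and Krt82, were above 0 on both arrays, while Krt34, Krt83, Krt85 and Krt86 were above 0 on 1 array and below 0 on the other. At 3W no keratin of 8 was called, against 0.257% of the 24168 probes above background, and the median was 0.07. The median changed sign with the array, -0.036 with N-CE in Cy5 and 0.23 with N-CE in Cy3, and the arrays of 4 of 8 keratins lay on opposite sides of 0. The spot of Krt35 was marked as an outlier on 1 array of N-CE at 3W and was left out there. Krt82 was highest, at 0.33 on both arrays, and Krt34 lowest, at -0.28 and -0.23. The other 6 lay between -0.01 and 0.22 on average.

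Set beside each other, the treatments stood furthest apart at 1W. MXD minus N-CE in log2 ratio had a median of 3.00 over 9 keratins (2.42 to 3.74), then 1.01 at 2W (0.74 to 1.38) and 0.21 over 8 keratins at 3W (-0.04 to 0.38). With the 3 weeks as replicates, limma (p adjusted by Benjamini-Hochberg) asked whether a shift was shared by the weeks. MXD averaged between 0.62 for Krt85 and 0.89 for Krt33a, with adjusted p between 0.44 and 0.46. Of the 9 keratins 0 passed, and 0% of all 23719 probes did, though all 9 had an unadjusted p under 0.05, as had 2545 probes. That count was 1 of 9 with dim probes included. It was 0 of 8 in a joint fit of MXD and N-CE with the slide as a random block. The joint fit gave both treatments a common error, so differences between the N-CE weeks also counted as error for MXD. For Krt85 the standard error of the MXD mean was 0.43 there and 0.17 in the fit of MXD alone. The part of the slide in this was not tested. For N-CE the averages lay between -0.92 for Krt34 and -0.37 for Krt82, adjusted p was 1.00 for each, and 0 of 8 keratins and 0% of all probes passed, with 0 of 8 keratins and 331 probes at an unadjusted p under 0.05. For MXD minus N-CE 0 of 8 keratins and 0% of all probes passed, at an adjusted p of 0.66, while 8 of 8 and 1700 probes had an unadjusted p under 0.05, and 3 of 8 keratins did with the slide as a random block and 0 of 8 with dim probes included. This outcome turned on 1 week: without 3W, 8 of 8 keratins passed at adjusted p between 0.019 and 0.025, as did 8.27% of all probes. Krt35 was not in the N-CE fit or in the difference, because of its marked spot.

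The signal of each pool was also followed on its own, as log2 intensity after quantile normalization of the arrays, with 4 channels of VC and 2 of each treated pool per week. In VC the keratins rose with time. The median step was 1.57 from 1W to 2W, upward in 9 of 9, and 0.65 from 2W to 3W, upward in 8 of 9. Among the 21972 probes above background in all VC channels, the 5th to 95th percentile of the first step was -0.46 to 0.61. Krt86 rose most in VC, from 10.88 to 13.38 and 14.27 at 1W, 2W and 3W. Krt83 went from 11.12 to 13.78 and 14.48, and Krt85 from 12.00 to 13.33 and 14.29. Krt35 moved least, from 14.20 to 14.50 and 14.91. For Krt35 and Krt33a the VC channels of 1W and 2W overlapped, and the other 7 keratins had separate ranges.

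MXD was ahead of VC at 1W and 2W, in all channels, for 9 of 9 keratins, and for 4 of 9 at 3W. Its level rose by a median of 2.09 from 1W to 2W and then changed by -0.53 to 3W, with 1 of 9 higher, so that VC approached it. Krt34, for example, was at 13.70, 16.38 and 15.83 under MXD and at 13.10, 15.09 and 15.74 in VC. Krt31 was at 12.83, 14.79 and 14.19 under MXD and at 12.15, 13.72 and 14.13 in VC. Both had their highest MXD level at 2W and a VC level still rising.

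N-CE started below VC in all channels for 9 of 9 keratins and reached it a week later. Its median step from 1W to 2W was 4.54, the range over members being 2.92 to 5.07, and from 2W to 3W it was 0.30. Krt33b went from 9.70 to 14.77 and 14.91 under N-CE, and from 12.21 to 14.34 and 15.04 in VC. Krt86 went from 8.69 to 13.50 and 14.30 under N-CE. At 2W the N-CE and VC channels overlapped for 6 of 9 keratins, and the 3 others, Krt33a, Krt33b and Krt35, were above VC. At 1W the order was therefore MXD, VC, N-CE without overlap for every keratin. At 2W the MXD level stood above VC for all 9 and above N-CE for 8, with overlap for Krt33a. At 3W it stood above N-CE for 4, below it for Krt31 and Krt35 (1 N-CE channel), and overlapped for Krt33a, Krt83 and Krt85. MXD and N-CE were never on the same array, and ratios to VC on the same arrays gave another order for some keratins. By these, MXD minus N-CE was 0.91 for Krt33a at 2W. At 3W it was 0.13 for Krt31 and -0.04 for Krt82, which is among the 4. The VC pool read on the MXD and on the N-CE arrays of a week differed by medians of 0.06, -0.07 and -0.03. For single keratins it differed by up to -1.21, the value of Krt33a at 2W. These steps between weeks are also steps between slides.

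**Figure D2:**
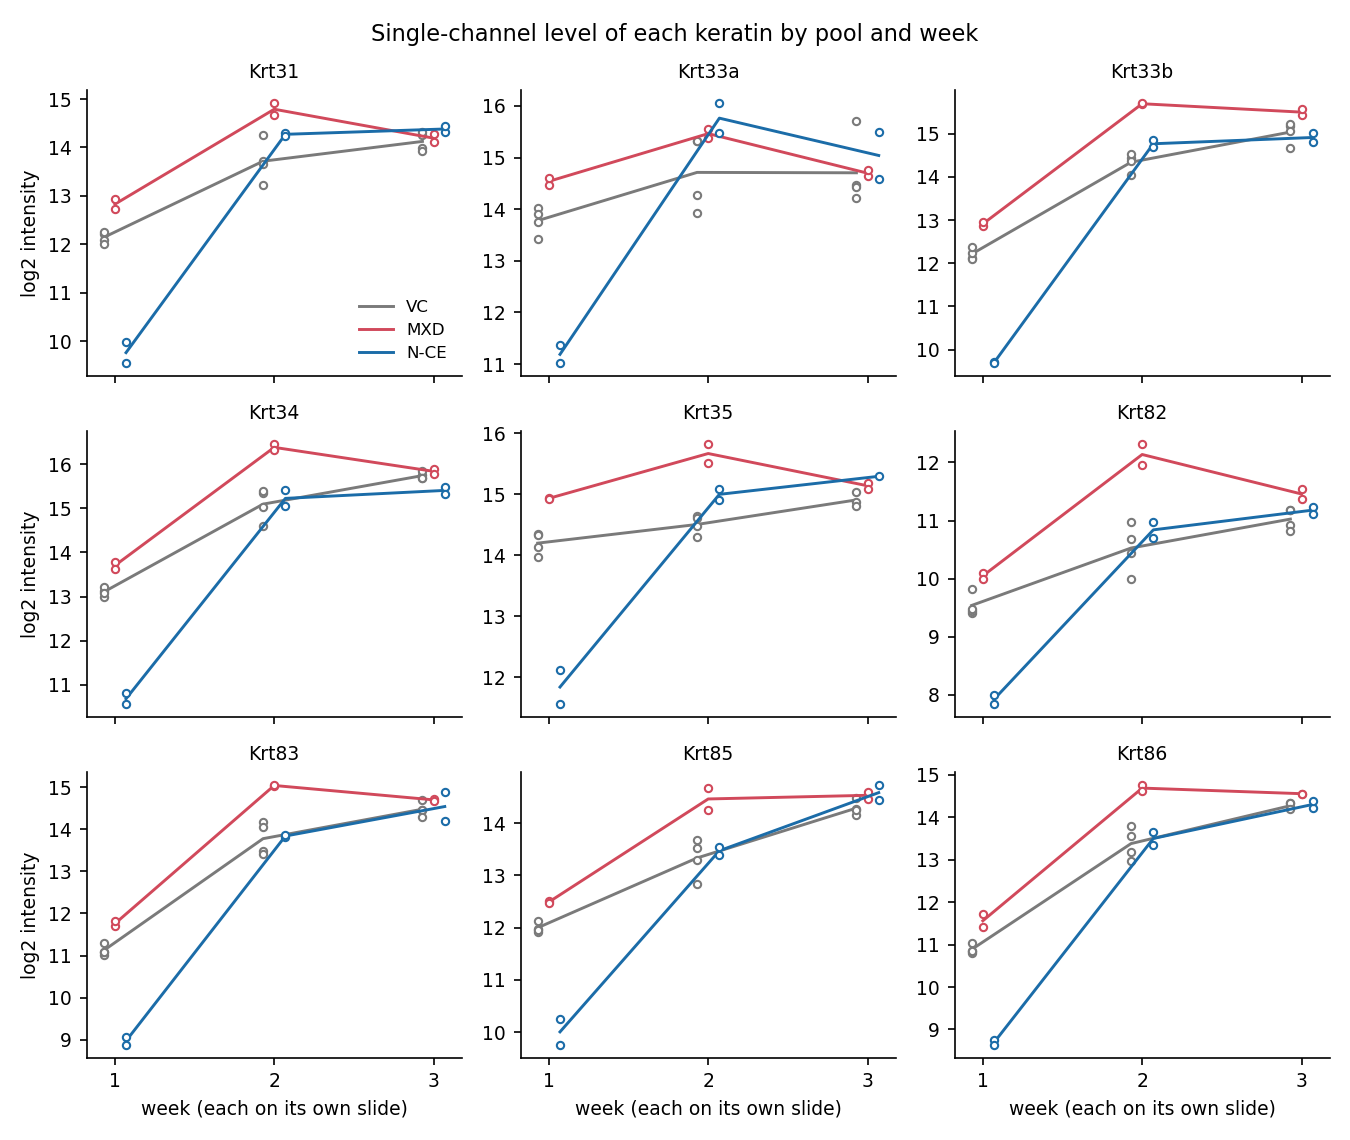
Log2 intensity of each hair shaft keratin against the week after the start of treatment, with a panel and a scale of its own for each gene. Circles are single channels (4 of VC, 2 of MXD and 2 of N-CE per week, fewer where a spot was marked) and lines join their means. N-CE starts lowest in every panel at 1W and lies near or above VC at 2W, and MXD peaks at 2W in 8 of 9 panels.

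Genes that act with these keratins were followed in lists. Of 6 further hair keratins 3 had a probe by name, and Krt32, Krt36 and Krt84 rose at MXD 2W by 1.17, 1.35 and 1.39. Krt87, also of the 6, had no probe by name, though the accession of the Krt83 probe now carries its name. At N-CE 1W Krt32 and Krt36 fell by 1.20 and 1.64 on the log2 scale, while Krt84 had 0.05 ± 0.05. Krt84 is best known from tongue and nail, and its value stood against all 9 members.

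Of 19 assembly and crosslinking partners 13 rose at MXD 2W and 11 fell at N-CE 1W, with medians of 1.31 and -1.78. The shares of all probes above background called so were 6.39% and 2.39%, here and for the lists below. Dsg4, the desmosomal cadherin that holds shaft cells together, rose most at MXD 2W, by 1.91 ± 0.12. Krtap16-1, a keratin-associated protein, rose by 1.70. Krtap3-1, of the same class, rose by 1.57 and fell by 2.62 at N-CE 1W. S100a3, a calcium-binding protein of the cuticle, rose by 1.53 at MXD 2W. At N-CE 1W Dsg4 was called down, but N-CE was above background on 1 of its 2 arrays, and VC exceeded it at least 2.19-fold on the quantile-normalized scale. Padi3, which citrullinates trichohyalin and S100a3, fell by 2.79, and Crym, a thyroid hormone binding protein, fell by 2.67. Among those that did not follow were proteins shared with the epidermis. Lgals3 had -0.24 at MXD 2W and 0.03 at N-CE 1W, and Jup had 0.05 at N-CE 1W.

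Of 15 transcription factors of the shaft 8 rose at MXD 2W and 7 fell at N-CE 1W, with medians of 0.73 and -0.62. Lef1, the partner of beta-catenin in the matrix and precortex, rose by 1.47 ± 0.08 at MXD 2W and fell by 1.92 at N-CE 1W. Dlx3, a homeobox factor of the matrix and shaft, rose by 1.36, and Foxn1, the factor missing in nude mice, by 1.26. Msx2, a matrix homeobox factor, rose by 1.20 and fell most at N-CE 1W, by 2.15. Hoxc13, known to regulate hair keratin promoters, had 1.10 at MXD 2W, where it was called, and was called down at N-CE 1W, where N-CE was above background on 1 of 2 arrays and VC exceeded it at least 1.34-fold on the quantile-normalized scale. At N-CE 1W Dlx3 had -1.33. Foxq1, which acts in the hair medulla, had 0.08 at N-CE 1W and was the factor above 0 there.

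Of 10 follicle receptors and ligands 3 rose at MXD 2W and 2 fell at N-CE 1W. Notch1, a receptor of the matrix and precortex, rose by 1.33, Shh, a growth signal of the matrix, by 1.20, and Fgf5, which ends the growth phase, by 1.16. For Shh and Fgf5 the N-CE pool at 1W was not well above background on either array. On the quantile-normalized scale VC exceeded it at least 1.79-fold for Shh and at least 1.72-fold for Fgf5. Fgf7, a signal of the dermal papilla, stood against the list with -0.77 ± 0.58 at MXD 2W and 0.32 ± 0.34 at N-CE 1W, and was not called. With the genes below background set to their bounds the list median at N-CE 1W was -0.24 in place of -0.38.

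Markers of other cells moved beside the keratins. Of all probes above background, 6.39% were called up at MXD 2W and 2.39% down at N-CE 1W. Inner root sheath markers, among them Tchh, the trichohyalin gene, had medians of 1.18 at MXD 2W (5 of 6 called up) and -2.80 at N-CE 1W (6 of 7 called down). The exception in both was Gata3, which was also counted among the transcription factors of the shaft. Melanocyte markers had 1.27 (7 of 7 up, and 1.24 with Tyr, below background in VC, at its bound) and -1.90 (5 of 6 down). Proliferation markers had 0.95 (6 of 6 up) and -1.09 (6 of 6 down). Inner root sheath and melanocytes belong to the growing follicle too. Which cells of the whole skin carried the proliferation markers was not tested. Other markers did not go with the keratins at N-CE 1W: epidermis had a median of 0.08, fibroblast 0.07, adipocyte 0.29 and skeletal muscle -0.12, with none called. At MXD 2W the same lists went down. Skeletal muscle markers had a median of -1.46 and all 12 fell, against 9.23% of probes called down there. Adipocyte markers had -0.68 (5 of 8 down), fibroblast markers -0.84 (3 of 6) and epidermal markers -0.56 (4 of 9 down, 1 up). Muscle markers were also lower at MXD 1W, with a median of -0.73 where the keratins had 0.65, and at MXD 3W, with -0.44 where the keratins had 0.29. They were lower under N-CE too at 2W, with -0.46, and at 3W, with -0.38, where the keratins had 0.32 and 0.07. Melanocyte markers had 0.73 at MXD 3W (5 of 7 up, against 0.242% of probes) where the keratins had 0.29. At N-CE 3W they had 0.58 (1 of 6 up, against 0.257% of probes) where the keratins had 0.07. The part of these cell types in the keratin values was not tested.

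**Figure D3:**
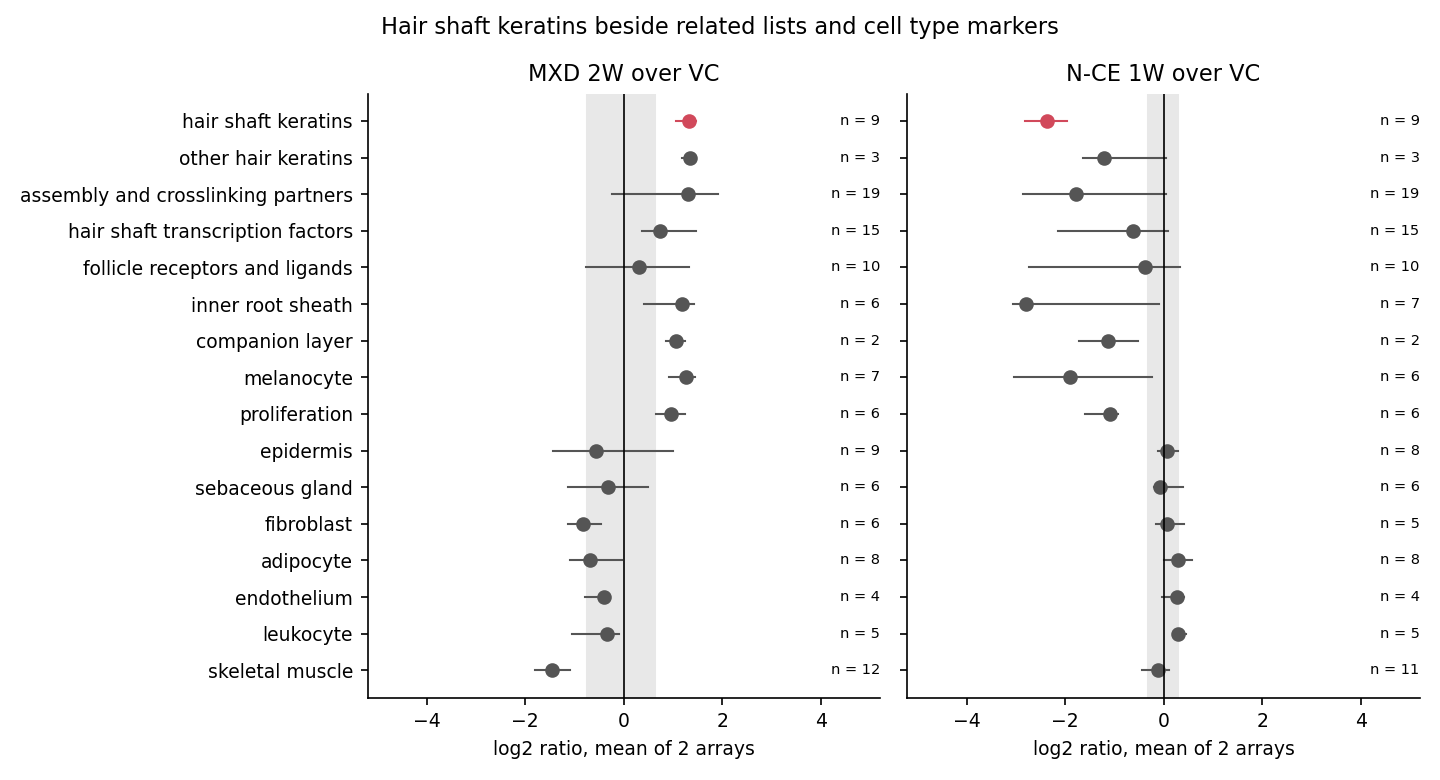
Median (point) and range (line) of the log2 ratio over VC for the hair shaft keratins, in red, and for related genes and cell type markers, at MXD 2W and N-CE 1W. n is the number of genes above background in at least 1 pool, with outlier spots left out, and the grey band is the 10th to 90th percentile of all probes. The keratins stand with inner root sheath, melanocyte and proliferation markers in both panels, at medians of 1.33 and -2.37.

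The genes most like the keratins were sought among 14621 genes above background in both pools of all 6 comparisons, by the root mean square difference from the members' median log2 ratio over the 6 comparisons. This is a measure over 6 values that share 3 VC pools. Krt31 itself was nearest, at 0.03, but its own value is the members' median at MXD 2W, N-CE 1W and N-CE 2W. The 8 nearest genes outside the members were A030003K21Rik (0.06), Gjb2 (0.07), Cryba4 (0.09), Krtap3-3 (0.09), Krtap28-13 (0.09), A030005K14Rik (0.10), S100a3 (0.11) and Bhlha9 (0.12). Gjb2, the gap junction protein connexin 26, had 0.52, 1.28 and 0.21 under MXD at 1W, 2W and 3W and -2.35, 0.39 and 0.08 under N-CE. Krtap3-3, a keratin-associated protein, had 0.68, 1.32 and 0.16 under MXD and -2.29, 0.20 and -0.03 under N-CE. Closeness to the keratins is what chose them, and Krtap3-3 lay on the other side of 0 from the members' median at N-CE 3W.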

How the data were processed

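RNA of 6 mice per group was pooled and 12 arrays of 2 colours were analysed. The authors deposited the scanner output of Agilent Feature Extraction (version 11.0.1.1 in the labels, 12.0.3.1 in the file headers). The deposited log10 ratio is Cy5 over Cy3 after background subtraction and LOWESS dye normalization by the authors, and the deposited p-value is that of the software's error model for a spot. The authors deposited both raw and processed signal intensities, and the deposited series matrix holds log10 ratios of the processed intensities. Control and outlier spots were left out, ratios were converted to log2 and turned to treated over VC, and the 2 arrays were averaged. Each gene was given by its brightest probe. Levels used normexp (offset 50), loess and quantile normalization, which compresses dim signals. Python 3.11.15, pandas 2.3.3, R 4.3.3 and limma 3.58.1 were used, and the steps were tested on simulated data. The members and lists were chosen with earlier results of these data known. Named genes were all members, up to 4 called genes of each list per direction in MXD 2W and N-CE 1W with those going against their list, and the 8 nearest genes. Alternatives are given below.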

Additional observations from a re-analysis of the deposited data

Results flagged for a closer look

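The values in this section were picked because both arrays of one pool lay above 0 and both arrays of another below it. Each pool is 1 sample, so these differences were not tested within a week. No group held enough samples for a search for single outlying samples.

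At 1W MXD lay above VC and N-CE below it for all 9 keratins. MXD minus N-CE in log2 ratio was 2.98 for Krt31, 3.74 for Krt33a, 3.55 for Krt33b, 3.16 for Krt34, 3.00 for Krt35, 2.42 for Krt82, 2.89 for Krt83, 2.49 for Krt85 and 3.05 for Krt86. At 3W the same split was seen for Krt34 alone, with a difference of 0.31.

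Within N-CE, 5 keratins lay below VC at 1W and above it on both arrays at 2W. The 1W minus 2W difference was -2.69 for Krt31, -3.25 for Krt33a, -3.08 for Krt33b, -2.78 for Krt35 and -2.49 for Krt82. For 3 keratins the same held between 1W and 3W, with -2.48 for Krt31, -2.29 for Krt82 and -2.24 for Krt85. Week and slide cannot be told apart in these.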

How the results depend on the processing

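All 9 keratins were called at MXD 2W and all 9 at N-CE 1W in every setting tried for them, symmetric 2-fold thresholds included (8 of 8 where Krt83 was left out). At MXD 1W 5 to 8 keratins were called on 1 array alone, and 0 with symmetric 2-fold thresholds. At N-CE 2W 1 to 2 were called on 1 array alone and the median ranged from 0.026 to 0.39. The rule for 1 array asks for P and fold on that array only. The share of all probes called by it was not computed, so these counts have no background beside them. The MXD 3W median was 0.28 after normexp and loess, 0.26 to 0.27 on 1 array alone, and 0.30 without Krt83, a setting added after the data were seen. With weeks as replicates, MXD minus N-CE had 8 keratins past the threshold without 3W and 0 in the other settings. Of 371 other values of single keratins 360 kept their call or stayed within their dye-swap SD, 1 lost its call (Krt33b at MXD 1W, 0.65 as the median of its probes), 8 gained one and 2 moved beyond that SD. Krt35 at N-CE 3W was 0.35 with its marked spot kept. The causes were not tested. The joint limma fit of both treatments, with a common error and the slide as a random block, had a slide correlation of 0.18. In it an unadjusted p under 0.05 was reached by 0 of 8 keratins for MXD and 0 of 8 for N-CE. For MXD minus N-CE 3 of 8 reached it. In the separate fits without the filter on dim probes 1 of 9, 0 of 8 and 0 of 8 did. Without the filter on dim probes, the shares of all probes called fell to between 0.0682 and 4.04%. The median changes in level kept their sign on the scale of processed signals, while the keratins higher went from 9 to 8 of 9 for MXD 1W to 3W, from 1 to 0 for MXD 2W to 3W, and from 8 to 7 for N-CE 2W to 3W.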
